A study of Mus musculus with 12 samples.

Results

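The genes described here make cholesterol and fatty acids, regulate that synthesis, or store, move and remove cholesterol. They are 38 genes chosen by name for these roles and found by symbol among 13957 symbols in the authors' table. All 38 were listed above the lesion, where the table held 13647 rows, and 31 were listed below it, where it held 12338. HMGCS1, PMVK, FDPS, SREBF1, NPC2, ACLY and FASN were listed above the lesion only and have no value below. The 38 genes fall into 8 early enzymes, from acetyl-CoA to squalene, 10 late enzymes, from squalene to cholesterol, 7 regulators, 7 genes of storage, lysosomal release, transfer and removal, and 6 genes of fatty acid synthesis.

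Bulk RNA-seq was performed on spinal cord tissue of male mice that express the human ApoE4 variant, all with a contusion at thoracic level 9 made at 4 months of age and all collected 14 days after injury. Segments were taken rostral (above) or caudal (below) to the lesion, from mice with both synj1 alleles intact (synj1+/+) or with 1 inactive allele (synj1+/-), which gave 4 groups of 3 libraries and 12 libraries in all. Every group therefore shares ApoE4, the injury, the sex and the time, and no uninjured cord is among these samples. How the inactive allele was made is not given in the sources used here, and the tissue is a mixture of all cells of the segment.

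The authors' table gives 1 value for each gene in each of the 4 groups, with the 3 libraries of a group combined. The lowest value is exactly 1, so values were read as FPKM (fragments scaled to transcript length and to the size of the library) plus 1, on a scale set by upper quartile normalization. No spread between mice can be computed from them, every difference below lacks a replicate check, and no test was made. A difference is called here when the log2 ratio of the group values is at least 0.32 in either direction, and the share of all genes called by the same rule is given beside the counts of members. In bulk tissue, fewer cells of a type and less RNA per cell cannot be told apart.

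SYNJ1, the gene carrying the inactive allele (chromosome 16, 90936092 to 91013727, GRCm38), was higher in the groups labelled as synj1+/- at both sites. Its value was 1905 in the group labelled as synj1+/+ and 2404 in the group labelled as synj1+/- above the lesion, while the caudal values were 1847 and 2593. This goes against the labels, although genotypes were checked by PCR according to the study's methods, so each direction given here is between groups as labelled.

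Cholesterol is made in the endoplasmic reticulum from acetyl-CoA through mevalonate, isoprenoid units and squalene, which is folded into a sterol ring and trimmed to cholesterol. The brain and spinal cord make their own cholesterol, because circulating lipoproteins do not cross their barrier, and oligodendrocytes use much of it for myelin while astrocytes pass it to neurons on ApoE particles. When membrane sterol is low, SCAP carries the SREBP transcription factors, the products of SREBF1 and SREBF2, to the Golgi for activation, and they switch on the synthesis genes from promoters where NF-Y, a factor that binds CCAAT, is a known partner. The INSIG proteins hold SCAP back when sterol is plentiful, and the LXR receptors, NR1H2 and NR1H3, answer to oxysterols by turning on export.

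The starts of the synthesis genes are shown first, since the enzymes are the members whose ratios leaned 1 way. RefSeq promoters of GRCm38.p6, the build in the submitters' processing notes, were found for 31 of the 38 members and 15 of the 18 enzymes. For 5 enzymes, those with the largest ratio above the lesion (HMGCS1) and the 3 largest below it (CYP51, MVD and MSMO1), and IDI1 as a further early step, the 150 bases before the listed start are printed 5′ to 3′ on the gene's strand. Capitals mark the letters TCACNCCAC, a form of the sterol regulatory element that SREBP proteins bind, and CCAAT, each searched on both strands, so that CCAAT may appear as ATTGG.
HMGCS1 (chr13:119690201-119690350, forward strand): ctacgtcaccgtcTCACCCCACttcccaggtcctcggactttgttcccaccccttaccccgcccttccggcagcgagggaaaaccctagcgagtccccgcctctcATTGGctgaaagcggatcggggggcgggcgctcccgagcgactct
MVD (chr8:122443423-122443572, reverse strand): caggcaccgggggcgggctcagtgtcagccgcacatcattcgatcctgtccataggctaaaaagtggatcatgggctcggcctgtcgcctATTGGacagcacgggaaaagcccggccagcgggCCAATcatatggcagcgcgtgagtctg
IDI1 (chr13:8885456-8885605, forward strand): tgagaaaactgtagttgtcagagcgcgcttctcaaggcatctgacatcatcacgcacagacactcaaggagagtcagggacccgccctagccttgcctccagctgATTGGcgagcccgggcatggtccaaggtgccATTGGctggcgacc
CYP51 (chr5:4104698-4104847, reverse strand): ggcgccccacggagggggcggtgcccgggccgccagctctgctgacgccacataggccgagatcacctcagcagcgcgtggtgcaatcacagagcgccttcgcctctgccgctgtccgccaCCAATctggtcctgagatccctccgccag
MSMO1 (chr8:64733579-64733728, reverse strand): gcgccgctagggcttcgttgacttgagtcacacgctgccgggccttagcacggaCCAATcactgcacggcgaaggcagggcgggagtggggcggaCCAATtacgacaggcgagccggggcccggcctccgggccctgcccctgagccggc
HMGCS1 was the 1 enzyme with TCACNCCAC in the 250 bases before its start, and it also holds ATTGG nearer the start. MVD, IDI1 and MSMO1 each hold CCAAT at 2 places in the stretch shown, and CYP51 at 1. Over all 250 bases, CCAAT was found in 14 of the 15 enzyme genes (93.3%) and in 25 of the 31 members (80.6%), against 37.5% of the 27025 genes in the promoter table. ACAT2 was the enzyme without it. TCACNCCAC was found before 1.22% of all genes, and the E-box letters CACGTG before 20.0% of the enzyme genes and 6.86% of all genes. No match of these motifs overlapped another in the stretches shown. These are matches of letters only, and genes with more than 1 listed start had more bases searched. The 27025 genes were not limited to those listed in these data, as the members are.

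The first question was whether the groups labelled as synj1+/- and synj1+/+ differed in these genes above the lesion. Of the 18 enzymes of cholesterol synthesis, 16 had a higher value in the group labelled as synj1+/-, with a median log2 ratio of 0.14, while 49.0% of all genes were higher and their median was -0.00. Among the 10524 genes within the members' range of levels, 50.1% were higher. Of the 18 enzymes, 0 were called. Over all 38 members, 1 was called lower and 0 were called higher, where 7.45% and 4.18% of all genes, and 6.09% and 3.20% of genes within the members' range of levels, were called. Differences of the called size were thus no more frequent among the members than among other genes. Set beside all genes, the enzymes differed in their shared direction at small size, which was not particular to them. Of the marker lists given further on, endothelial markers were higher for 5 of 5 above the lesion, with a median log2 ratio of 0.10. Neuron markers were higher for 5 of 9 there, and microglia and macrophage markers for 1 of 12.

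All 8 early enzymes were higher above the lesion in the group labelled as synj1+/-. HMGCS1, which condenses acetyl-CoA with acetoacetyl-CoA, had the largest log2 ratio of the enzymes, 0.28, from 269 in the group labelled as synj1+/+ to 326. ACAT2, the cytosolic thiolase of the first step, had values of 23.2 and 27.1. FDPS, which builds farnesyl diphosphate, had values of 21.3 and 24.7, a log2 ratio of 0.21. The kinases MVK and PMVK differed less, with log2 ratios of 0.15 and 0.07. The smallest difference was in FDFT1, the squalene synthase, with values of 119 and 122. The exons of FDFT1 overlap those of CTSB, a lysosomal protease on the opposite strand, whose value above the lesion was 656 and 532, and the kit does not mark strand. In all, 13 members have exons that overlap another gene's.

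Of the 10 late enzymes, 8 were higher and 2 lower above the lesion in the group labelled as synj1+/-. NSDHL, which removes carbon from the sterol ring, had values of 10.4 and 12.3, a log2 ratio of 0.25. HSD17B7 and SC5D, which reduce and desaturate the ring, had log2 ratios of 0.19 and 0.17. EBP, the sterol isomerase, was lower in that group, with 22.3 and 19.6, and so was LSS, which closes the ring, with 45.8 and 41.1. CYP51, SQLE and DHCR7 lay within a log2 ratio of 0.05 of equal.

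Below the lesion the enzymes leaned the same way, with larger differences in the late steps. There 14 of the 15 enzymes listed were higher in the group labelled as synj1+/-, with a median log2 ratio of 0.20, while 52.8% of all genes, and 53.8% of the 9434 genes within the members' range of levels, were higher and the median of all genes was 0.01. CYP51 and MVD were called higher. Over the 31 members listed, 2 were called higher and 2 lower, where 8.06% and 11.5% of all genes, and 7.05% and 9.73% of genes within the members' range of levels, were called. Over the members the share called was thus no larger than among other genes here too, although the 2 called higher were both among the 15 enzymes.

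CYP51, the demethylase that acts on lanosterol (chromosome 5, 4080674 to 4104697), had a value of 21.6 in the group labelled as synj1+/+ and 28.2 in the group labelled as synj1+/- below the lesion, a log2 ratio of 0.39. Its exons overlap those of AKAP9 on the opposite strand, and AKAP9 had values of 80.6 and 99.3 there, so part of this reading cannot be told apart from that gene. MVD, the decarboxylase of mevalonate diphosphate (chromosome 8, 122433596 to 122443422), had values of 9.07 and 11.8, a log2 ratio of 0.38, at a low level. MSMO1, which works beside CYP51 on the ring methyl groups, came just under the threshold, with 34.3 and 42.3 and a log2 ratio of 0.30.

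SQLE, which oxidizes squalene and commits it to sterols, had values of 20.3 and 24.5, and LSS had 35.5 and 42.6, with log2 ratios of 0.27 and 0.26. IDI1, the isomerase of the isoprenoid units, and DHCR7, the last reductase of the pathway, had log2 ratios of 0.21 and 0.20. DHCR7 was the most abundant late enzyme, at 167 and 192. TM7SF2, a sterol reductase, was the 1 enzyme lower below the lesion in the group labelled as synj1+/-, with 10.3 and 9.39. LSS and EBP thus had opposite directions at the 2 sites, and so did TM7SF2.

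**Figure D1:**
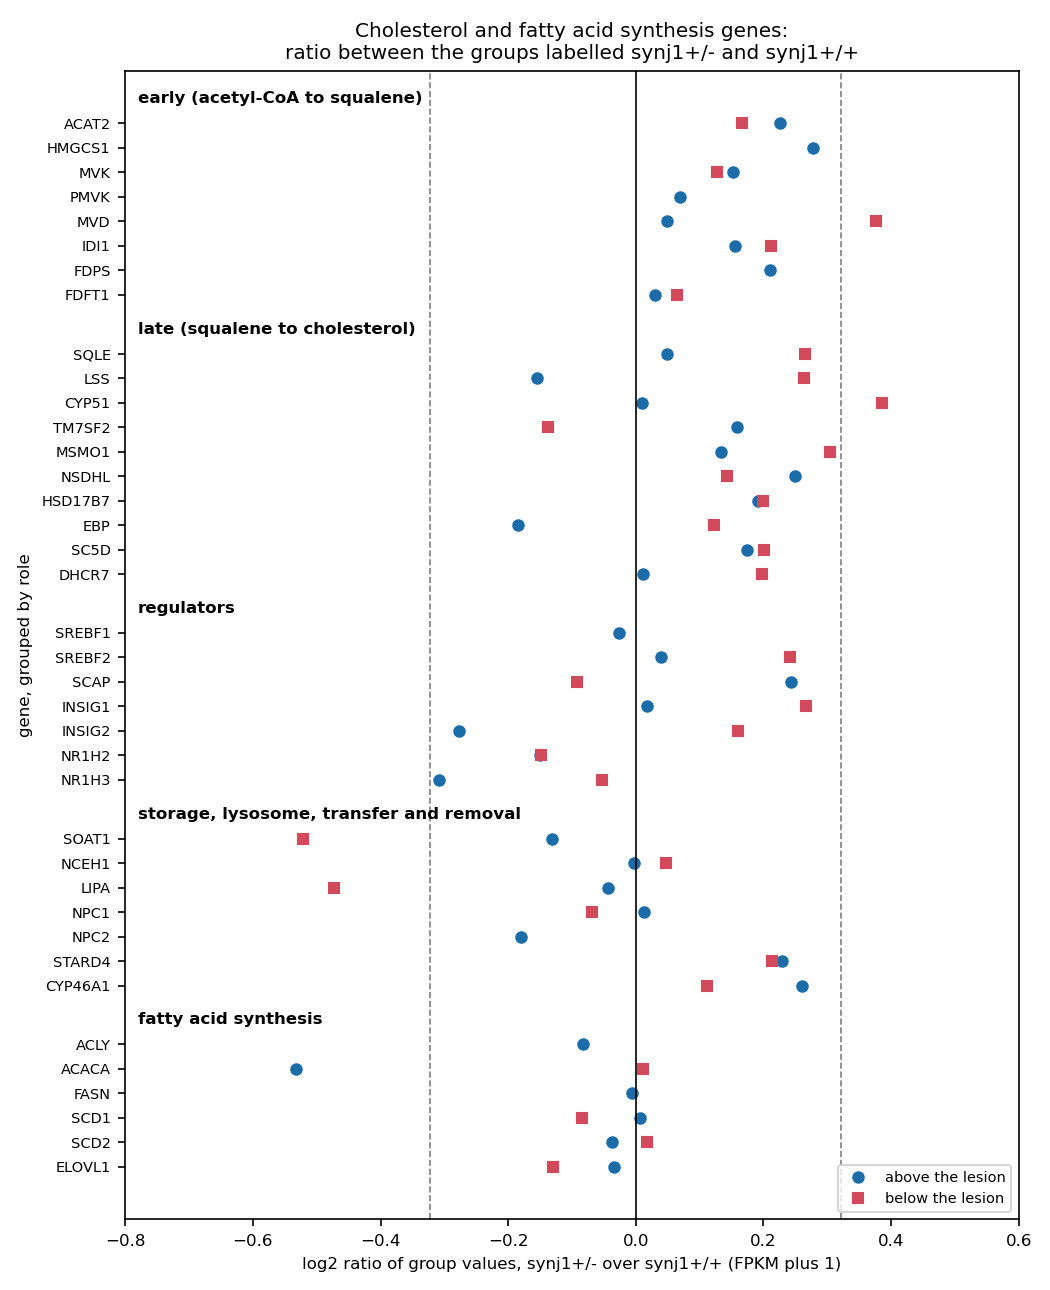
Log2 ratio of the group value labelled synj1+/- over that labelled synj1+/+ for each of the 38 genes, by role, above (circles) and below the lesion (squares); dashed lines mark a log2 ratio of 0.32 in each direction. Nearly all enzymes lie right of 0, with 16 of 18 above and 14 of 15 below the lesion, while ACACA above and SOAT1 and LIPA below lie left of the dashed line.

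**Figure D2:**
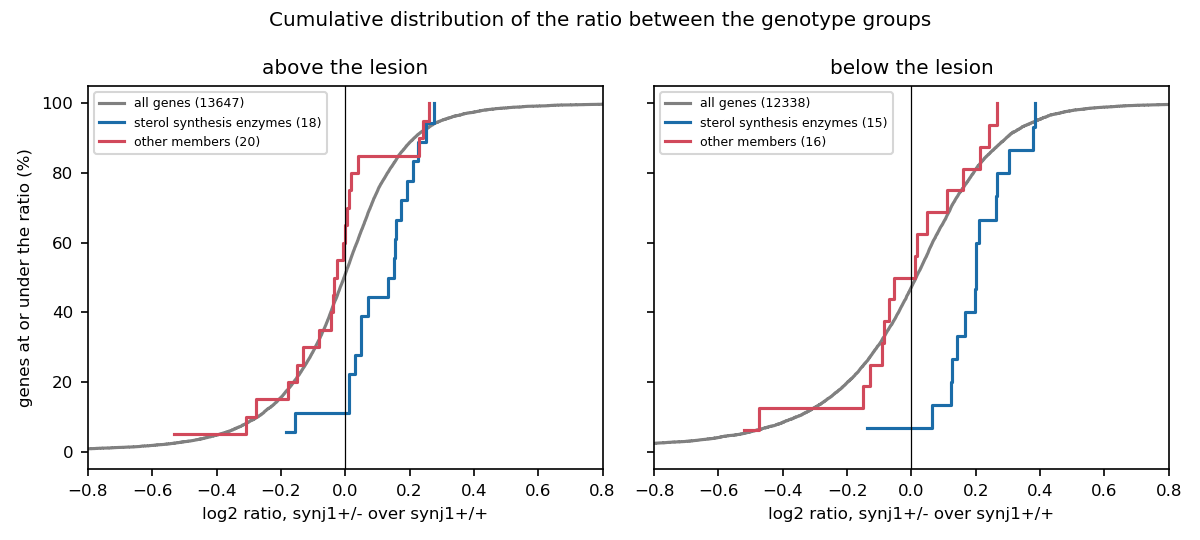
Share of genes (%) at or under each log2 ratio, for all genes, the sterol synthesis enzymes and the other members, in 1 panel per site. The enzyme curve lies to the right of that of all genes, at a median of 0.14 above and 0.20 below the lesion, and the axis ends at 0.8 in either direction.

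The second question was where these differences sat among the 4 groups. Libraries were brought to a common read number within each site and not between sites, so levels set across sites are a description. Of the 15 enzymes listed at both sites, 13 had their lowest value in the group labelled as synj1+/+ below the lesion, which was the lowest group for 30.7% of all 12023 genes listed at both. Their highest value was in the group labelled as synj1+/- above the lesion for 12 of the 15, and for 20.1% of all 12023 genes. The same value below the lesion in the group labelled as synj1+/+ enters both the comparison of genotypes there and the comparison of sites, so these counts are not separate evidence.

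In the groups labelled as synj1+/+, 13 of the 15 enzymes were lower below the lesion than above, 8 of them called, with a median log2 ratio of -0.33, while 50.2% of all genes were lower and 7.79% were called lower. CYP51 stood at 30.3 above and 21.6 below, a ratio of 0.713. MSMO1 stood at 47.9 above and 34.3 below, and SQLE at 27.7 and 20.3. In the groups labelled as synj1+/-, 12 of the 15 were lower below the lesion than above, 0 of them called, with a median log2 ratio of -0.20, where 44.5% of all genes were lower and 4.53% were called lower. CYP51 had a value of 30.5 above and 28.2 below in these groups, a log2 ratio of -0.11. MSMO1 stood at 52.5 and 42.3 there, a log2 ratio of -0.31, and SQLE at 28.6 and 24.5, or -0.23. SC5D and IDI1 had log2 ratios of -0.31 and -0.27 there, beside -0.34 and -0.33 in the groups labelled as synj1+/+. HSD17B7 had -0.24 in both genotypes. MSMO1 and SC5D thus lay just inside the threshold there, so the counts of 8 and 0 called overstate the contrast for these enzymes. ACAT2 was slightly higher below the lesion in both genotypes. Over all 31 members, 10 were called lower and 2 higher below the lesion in the groups labelled as synj1+/+, where 10.2% of all genes were called higher, and 0 and 0 in the groups labelled as synj1+/-, where 6.50% were called higher.

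Between the sites, 12 of the 15 enzymes had the same direction of the genotype difference, higher in the group labelled as synj1+/- at both, and 60.4% of all genes had the same direction at both. Of these 15, 13 were higher above the lesion and 14 below, and 12 is the least that can then be higher at both. The count of 12 therefore adds nothing to the counts at each site. The study's design lists 3 mice of each genotype for sequencing, while each genotype has 3 libraries above and 3 below the lesion, so the segments appear to share mice, although the labels do not pair them. The directions at the sites are then not independent of each other. The log2 ratio was larger below than above for 11 of the 15 enzymes and for 53.9% of all genes, most for LSS, CYP51 and MVD, by 0.42, 0.38 and 0.33. Whether the difference between sites exceeds the spread between mice could not be tested.

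**Figure D3:**
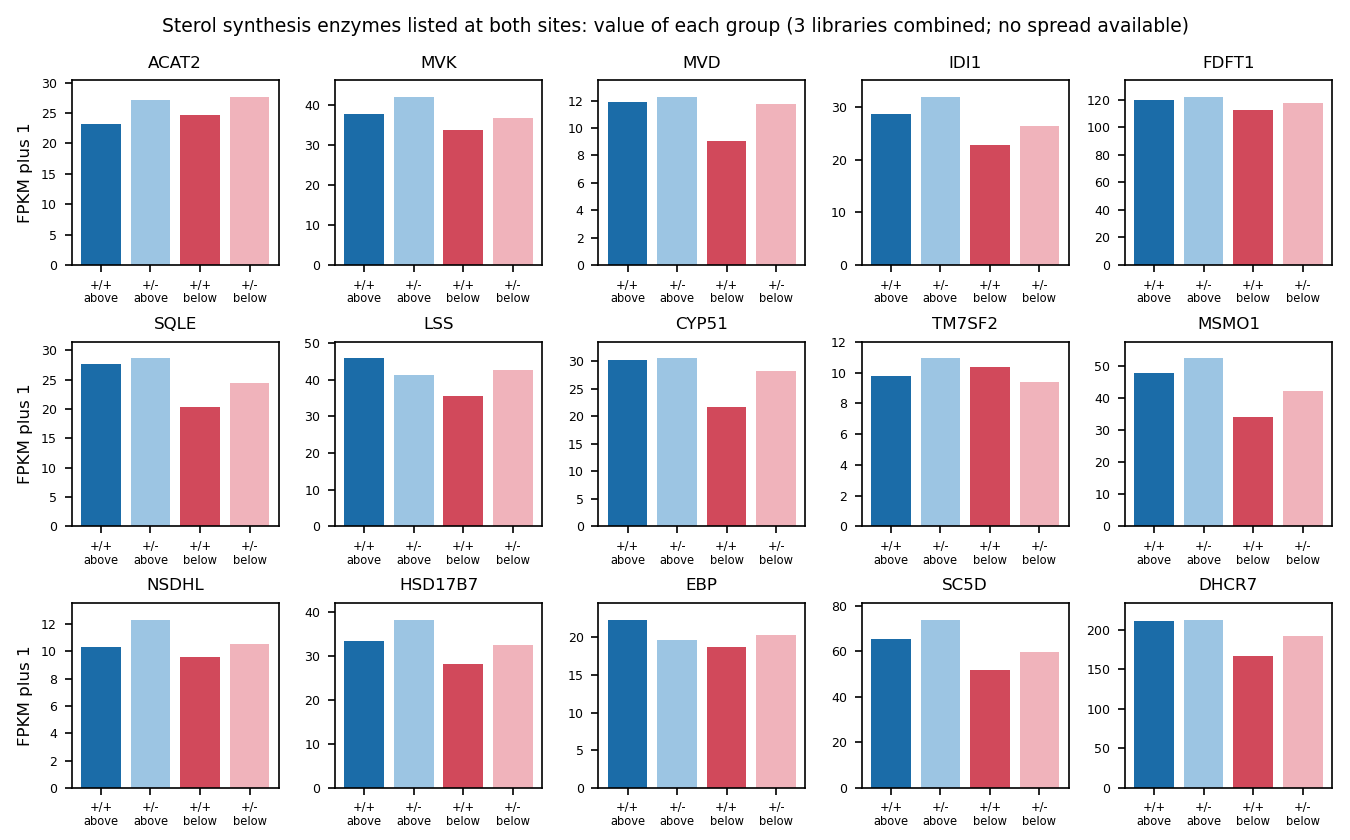
Value (FPKM plus 1, axis from 0) of the 15 cholesterol synthesis enzymes listed at both sites in each of the 4 groups, with the 3 libraries of a group combined and therefore no error bars. The bar of the group labelled as synj1+/+ below the lesion is the lowest for 13 of the 15 enzymes, ACAT2 and TM7SF2 being the others.

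The regulators were next. SREBF2, whose product is the main activator of cholesterol synthesis, had values of 111 and 114 above the lesion in the groups labelled as synj1+/+ and synj1+/-, and 85.5 and 101 below, a log2 ratio of 0.24 there. Across the 4 groups its lowest value was thus in the group labelled as synj1+/+ below the lesion, as for 13 of the enzymes. INSIG1, which is itself switched on by SREBP and holds SCAP back, had values of 45.4 and 45.9 above and 42.6 and 51.2 below, a log2 ratio of 0.27 below. SREBF1, whose product acts mainly on fatty acid synthesis, had values of 347 and 341 above the lesion. SCAP went the other way between the sites, with log2 ratios of 0.24 above and -0.09 below.

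INSIG2, the second retention protein, was 205 in the group labelled as synj1+/+ and 170 in the group labelled as synj1+/- above the lesion, a log2 ratio of -0.28, and 178 and 199 below. Of the LXR receptors, NR1H3, which is abundant in macrophages, was the nearest member to the threshold among those lower above the lesion, with 20.0 and 16.2 and a log2 ratio of -0.31. NR1H2, found in most cells, had a log2 ratio of -0.15 at each site. Of the regulators, 0 were called at either site. Of all genes, 7.45% were called lower and 4.18% higher above the lesion, and 11.5% and 8.06% below.

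Of the genes of storage, lysosomal release, transfer and removal, 6 were listed below the lesion, and SOAT1 and LIPA were called lower there. Of all genes, 11.5% were called lower there, and these were the only 2 lower calls among the 31 members. SOAT1 (chromosome 1, 156428108 to 156474328), which esterifies cholesterol for storage in droplets, had a value of 39.8 in the group labelled as synj1+/+ and 27.7 in the group labelled as synj1+/-, a log2 ratio of -0.52. LIPA (chromosome 19, 34492316 to 34527474), the lysosomal lipase that frees cholesterol from esters, had values of 53.3 and 38.4, a log2 ratio of -0.47. Above the lesion SOAT1 had values of 30.9 and 28.2, a log2 ratio of -0.13, and LIPA 37.2 and 36.1, a log2 ratio of -0.04. In both genes the group labelled as synj1+/+ below the lesion was the highest of the 4, the reverse of the enzymes, at 1.29 times the value above for SOAT1 and 1.44 times for LIPA.

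NCEH1, a hydrolase of cholesteryl esters, lay between 45.3 and 46.8 in all 4 groups. NPC1, which exports cholesterol from the lysosome, lay between 93.4 and 97.9, and NPC2, its soluble partner, had values of 82.2 and 72.6 above the lesion. STARD4, a sterol transfer protein regulated by SREBP, followed the enzymes, with log2 ratios of 0.23 above and 0.21 below and its lowest value, 11.2, in the group labelled as synj1+/+ below the lesion. CYP46A1, the neuronal hydroxylase that clears cholesterol from the brain, had values of 56.5 and 67.7 above and 59.3 and 64.0 below, log2 ratios of 0.26 and 0.11.

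Of the 6 fatty acid synthesis genes, ACACA was the 1 called, lower above the lesion, where 7.45% of all genes were called lower. At any size, 5 of the 6 were lower there and 1 higher, while 49.0% of all genes were higher. ACACA (chromosome 11, 84129635 to 84401651), acetyl-CoA carboxylase, the committed step of fatty acid synthesis, had a value of 196 in the group labelled as synj1+/+ and 136 in the group labelled as synj1+/- above the lesion, a log2 ratio of -0.53. Below the lesion its values were 137 and 138. The group labelled as synj1+/+ above the lesion therefore stood apart from the other 3, which lay within 136 to 138. The enzymes before and after it in the pathway did not share this, with log2 ratios above the lesion of -0.08 for ACLY, which makes cytosolic acetyl-CoA, and -0.01 for FASN, fatty acid synthase.

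SCD2, the main stearoyl-CoA desaturase of neural tissue, was the most abundant member, at 745 and 726 above the lesion and 643 and 651 below. SCD1, its close paralog, lay between 125 and 133 in all 4 groups, and reads shared by the 2 genes may be split between them. ELOVL1, which extends very long chains, had log2 ratios of -0.03 above and -0.13 below. The median log2 ratio of the fatty acid genes was -0.04 at each site, so unlike the cholesterol enzymes they did not lean toward the group labelled as synj1+/-, although the difference between the role groups was not tested.

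A list of 26 other genes of sterol and fatty acid metabolism was counted beside the members. Above the lesion 23 were listed, of which 3 were called lower and 0 higher, where 7.45% and 4.18% of all genes were called. Below it 22 were listed, of which 3 were called lower and 2 higher, where the shares of all genes were 11.5% and 8.06%, so the list's counts there were near the background. The called genes are given as values only. ABCA1, which exports cholesterol to apolipoproteins and is an LXR target, was lower at both sites, at 62.8 and 45.0 above and 89.9 and 53.2 below, log2 ratios of -0.48 and -0.76. CH25H, which makes an oxysterol, was called lower above the lesion, at 11.6 and 9.02. MYLIP, an LXR target that degrades lipoprotein receptors, and HSD3B7, a bile acid enzyme, were called lower below it, with log2 ratios of -0.46 and -0.39. ACACB, the mitochondrial carboxylase, went in opposite directions, with 11.5 and 7.89 above and 8.53 and 12.5 below, at a low level.

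Marker lists of the cells in the cord differed between the same groups, and their called counts stand against the same shares of all genes, 7.45% lower and 4.18% higher above the lesion and 11.5% and 8.06% below. The microglia and macrophage markers were lower in the group labelled as synj1+/-, with 8 of 12 called lower above the lesion and 7 of 9 below, and their summed value was 1954 and 1402 above and 1993 and 1319 below. SOAT1, LIPA and ABCA1 were called lower in the same group below the lesion. Above the lesion ABCA1 was called lower too, with a log2 ratio of -0.48, while SOAT1 and LIPA were not, with -0.13 and -0.04. Any link of these genes to the markers was not tested. Fibroblast markers were called lower for 6 of 6 below the lesion, where their sum was 379.7 and 66.8, and for 5 of 6 above, where it was 47.5 and 39.0. Of 9 neuron markers above the lesion 5 were higher and 0 were called, with sums of 10337 and 11653. SNAP25 supplied most of these sums, with 5239 and 6248, while TUBB3, NEFL, NEFM and NEFH were lower. Below the lesion 7 of 7 neuron markers were higher and 2 were called higher, with sums of 8453 and 10622. Their median log2 ratio below was 0.19, beside 0.20 for the enzymes, of which 14 of 15 were higher there.

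Astrocytes and oligodendrocytes are the cells known to make most cholesterol. Of 8 astrocyte markers, 7 were lower in the group labelled as synj1+/- at each site, with sums of 20037 and 16888 above and 18369 and 14760 below. GFAP supplied most of the astrocyte sums, with 12975 above and 11117 below in the groups labelled as synj1+/+. Of the oligodendrocyte markers, 6 of 10 were listed above the lesion, with sums of 12725 and 12202, and 5 below, with sums of 11616 and 10975. MOBP, a myelin protein, supplied most of these sums, with 10916 above and 10366 below in the groups labelled as synj1+/+, and the median log2 ratio of the list was -0.10 above and 0.01 below, where 3 of the 5 were higher. Between the sites, 4 of the 5 oligodendrocyte markers listed at both were lower below the lesion in each genotype. In the groups labelled as synj1+/+, 1 of these 5 was called lower, beside 8 of the 15 enzymes and 7.79% of all genes. The oligodendrocyte median log2 ratio of below over above was -0.32 in the groups labelled as synj1+/+ and -0.12 in the groups labelled as synj1+/-, beside -0.33 and -0.20 for the enzymes. For the other lists in the same order of genotypes, this median was 3.29 and 0.90 for fibroblast and 0.39 and 0.12 for endothelial markers. It was 0.21 and 0.03 for microglia and macrophage, 0.01 and 0.15 for neuron, and -0.02 and -0.02 for astrocyte markers. It was -0.03 and 0.03 for oligodendrocyte precursor markers and 1.28 and 0.03 for the 1 Schwann cell marker. In the same groups the summed value of the enzymes was 1139 and 1236 above and 601 and 682 below, over 18 and 15 genes. Oligodendrocyte precursor markers gave sums of 364 and 335 above and 336 and 340 below, endothelial markers 158 and 171 above and 198 and 191 below, and Schwann cell markers, of which 1 was listed above and 3 below, 8.49 and 15.6 above and 87.5 and 56.3 below. The part of cell composition in any of these ratios was not tested.

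**Figure D4:**
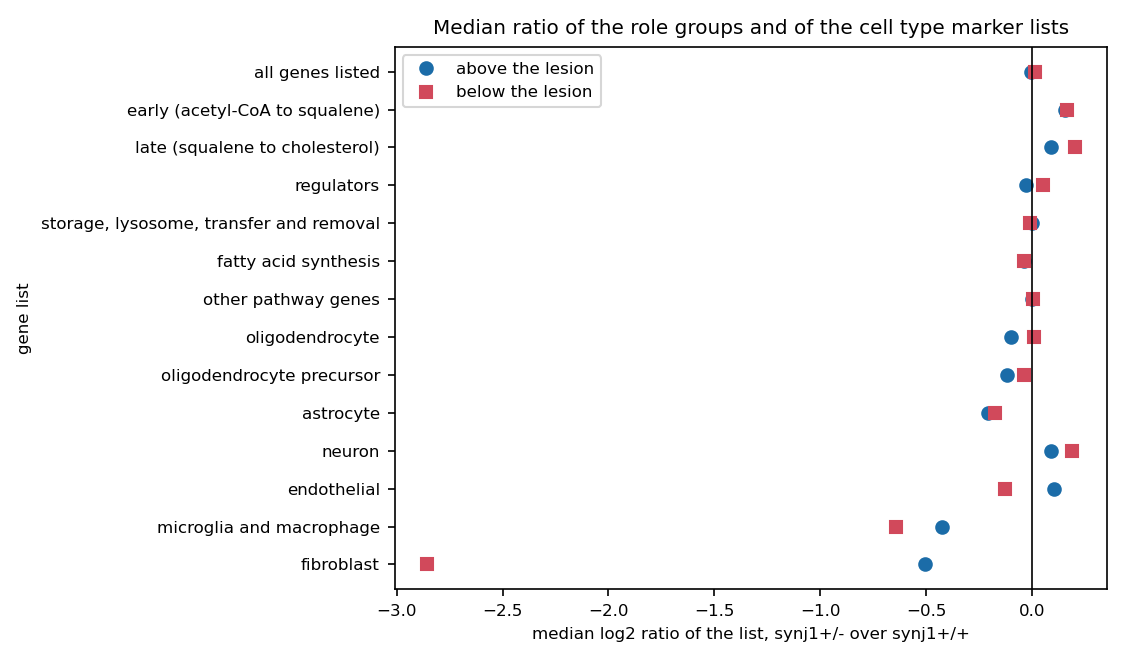
Median log2 ratio of the group value labelled synj1+/- over that labelled synj1+/+ for the role groups and the cell type marker lists, above (circles) and below the lesion (squares). The early and late enzymes lie between 0.09 and 0.20, the neuron markers at 0.09 and 0.19, and the microglia and fibroblast markers lie well below 0, to -2.86 for fibroblast markers below the lesion.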

How the data were processed

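RNA-seq was made from TRIzol-extracted total RNA with the TruSeq RNA Sample Prep Kit v2, which does not mark strand. The authors reduced the reads at random to the smallest library of each site, aligned them and summarized genes with upper quartile normalization. The submitters' processing notes name STAR 2.5.4b, Cuffdiff 1.3.0 and GRCm38.p6. The annotation is not given in the sources used here. The deposited FPKM values, apparently with 1 added, combine the 3 libraries of each group. The table holds 0 single-library columns, so the counts behind each value and the spread of single libraries are unknown. Columns with the authors' own comparison of the genotypes (fold changes, p-values, q-values and a significance call), and a shorter list of genes cut by p-value, were not used.

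Groups followed the labels. The log2 ratio of group values was computed for all rows, and members were counted at a log2 ratio of 0.32 or more with no test. The 3 symbols with 2 rows at a site were left out of comparisons of sites. Every member is named, as are SYNJ1 and genes of the other pathway list at that size or more; not every gene meeting this rule is reported here. Members, lists, motifs and threshold were chosen with earlier results of these data known. Exon overlaps came from GENCODE M21 and positions from RefSeq. Other pseudocounts, thresholds, scalings and filters were tried. The counting was tested on simulated data. Python 3.11.15, numpy 2.4.6, pandas 2.3.3 and matplotlib 3.10.9 were used.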

Additional observations from a re-analysis of the deposited data

How the results depend on the processing

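The counts of enzymes higher in the group labelled as synj1+/- did not depend on the scale, filter or scaling tried (16 above and 14 below the lesion, and 13 above among genes listed at both sites); these counts were recomputed after the data were seen. The medians over the members moved by less than 0.05 under every alternative. Counts at a fold threshold moved with the threshold, since most ratios are small. With calls from a log2 ratio of 0.20, 3 of 38 members were lower and 7 higher above the lesion, where 15.4% and 11.1% of all genes passed. Below it 2 of 31 were lower and 9 higher, where 19.7% and 18.7% passed. Higher calls at this smaller size thus made up a larger share of the members than of all genes, which was not tested. With calls from 0.58, 0 members were lower and 0 higher at either site. Of all genes, 1.94% and 0.791% then passed above, and 4.38% and 1.16% below. With 1 subtracted, a pseudocount of 0.1 gave 2 members lower above, and a pseudocount of 10 gave 0 higher below, where CYP51 and MVD had log2 ratios of 0.28 and 0.20. For below against above in the groups labelled as synj1+/+, a pseudocount of 10 gave 4 members lower and 1 higher in place of 10 and 2, and calls from 0.58 gave 0 lower and 0 higher. In the groups labelled as synj1+/-, centring on all genes gave 3 members lower in place of 0. No member changed direction between the genotypes under an alternative run at the site where it was called. Members not called and near equal could change sign, as ACACA below the lesion did, from a log2 ratio of 0.011 to -0.003 with centring. Each group has 1 combined value, so leaving out a replicate could not be done and the error between mice is unknown. No paired analysis was possible because the table has no column of single libraries.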
